A study of Mus musculus with 6 samples.

Results

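The integrin subunits studied here are the 10 mouse genes Itgav, Itgb3, Itgb5, Itgb1, Itga4, Itga5, Itgb2, Itgam, Itgax and Itgal. They were picked by name, with earlier results of these data known. The names stand for the osteoclast receptor alpha-v beta-3 and for the integrins through which leukocytes and fibronectin-bound cells adhere. All 10 were found among the 23504 Ensembl genes of the expression table. RNA-seq was carried out on 6 libraries of bone marrow-derived macrophages (BMMs) from male C57BL/6 mice aged 6 to 8 weeks, with no genetic modification named. In 3 libraries the cells had been treated with DASA-58, a small-molecule activator of the glycolytic enzyme PKM2, and in 3 with an equal volume of DMSO, its solvent, in both cases for 3 days. The study's results place both groups under RANKL, the cytokine that turns macrophages into osteoclasts, whereas its methods name RANKL only for the activator group. The methods also write DASA-48 for the compound that the sample labels call DASA-58, and no concentration was given for this experiment. Nothing states that the 3 libraries of a group came from separate animals or cultures, so p-values measure the spread between these samples, which may be technical.

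Integrins are receptors made of an alpha and a beta subunit, both spanning the membrane, that bind matrix or cell-surface ligands outside and the actin cytoskeleton inside. In osteoclasts, alpha-v beta-3 binds osteopontin and other RGD-bearing proteins of bone and organises the actin ring, whereas macrophages also carry alpha-v beta-5. The beta-2 subunit pairs in leukocytes with alpha-L (LFA-1), alpha-M (Mac-1) and alpha-X, and beta-1 pairs with alpha-5, the fibronectin receptor, and with alpha-4, which binds VCAM-1. Expression was given as FPKM, the fragments of a gene scaled to the length of its model and to the fragments counted in the library. Since levels between genes depend on the gene model's length, they are compared below only as FPKM.

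With DASA-58, integrin subunits moved in both directions. Itgb3 fell the most, to 46.5% of its DMSO level, and its partner Itgav fell to 72.3%, while Itgb5, which shares the same alpha-v partner, rose to 113%. The fibronectin receptor subunit Itga5 fell to 85.9%, and the leukocyte subunits Itgb2 and Itgal rose to 110% and 115%. Of the 9 subunits tested, 3 were lower and 3 were higher in the limma test (Benjamini-Hochberg adjusted p under 0.05, counted over 10965 genes), against a background of 7.28% of genes lower and 4.24% higher, or 11.5% in either direction. The other 3, Itgb1, Itga4 and Itgam, did not pass. The share of genes called was larger with a minimum mean of 5 FPKM, at 844 lower and 505 higher of 7179 genes. Of the subunits 2 were then lower and 3 higher, Itgb3 being under that minimum. Itgax, with a mean of 0.991 FPKM, missed the minimum mean of 1 FPKM and was not tested. Over the tested subunits the median log2 fold change was 0.04, against -0.03 over all genes, and the median absolute log2 fold change was 0.17, against 0.08. The groups did not overlap in the same 6 subunits, 3 with DASA-58 lower and 3 with DASA-58 higher, whereas 21.6% of all genes tested were apart and lower and 11.8% apart and higher, or 33.4% in all.

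**Figure D1:**
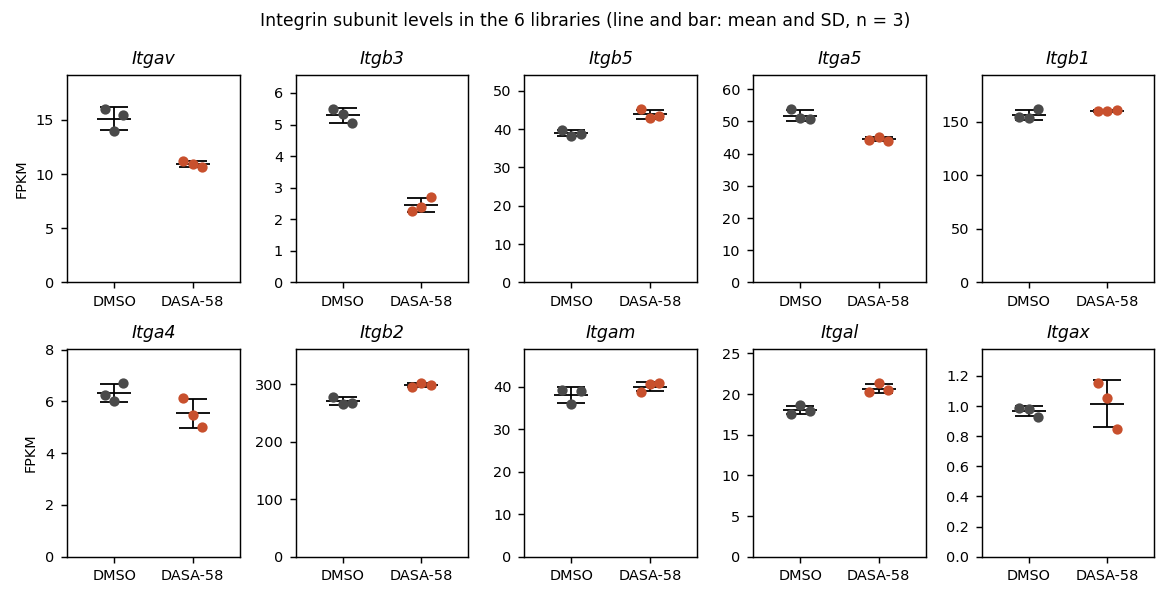
FPKM of the 10 integrin subunits in each library, on a separate linear axis from 0 for each gene, with 1 point per library and lines for the group mean and SD (n = 3). The DASA-58 points lie below every DMSO point for Itgav, Itgb3 and Itga5, above every DMSO point for Itgb5, Itgb2 and Itgal, and overlap with the DMSO points for the other 4.

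Itgb3 encodes the beta subunit that defines the osteoclast vitronectin receptor. It measured 5.49, 5.33 and 5.04 FPKM in the DMSO libraries and 2.28, 2.39 and 2.71 FPKM with DASA-58, from 542 to 594 and from 253 to 303 fragments. Every DASA-58 library was thus well below every DMSO library. The group means were 5.29 ± 0.224 and 2.46 ± 0.222 FPKM (SD, n = 3 each), a 2.15-fold difference. On the log2(FPKM + 1) scale, which understates the change of a gene this low, the fold change was -0.86 with a standard error of 0.063 (adjusted p = 2.8e-04, limma), and without the added 1 the log2 ratio of the means was -1.10. By p-value Itgb3 stood at rank 40 of the genes tested.

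Itgav encodes the alpha-v subunit, which can join beta-3, beta-5, beta-1 and other beta subunits. Its level was 16.0, 13.9 and 15.4 FPKM in the DMSO libraries and 11.2, 10.9 and 10.7 FPKM with DASA-58. The DMSO libraries varied more than the DASA-58 libraries, with replicate 2 the lowest of them, and yet the groups stayed apart. The means were 15.1 ± 1.05 and 10.9 ± 0.280 FPKM (SD, n = 3 each), and the log2 fold change was -0.43 with a standard error of 0.053 (adjusted p = 0.0024, limma).

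Itgb5, the beta subunit of the vitronectin receptor alpha-v beta-5, changed in the opposite direction. The DMSO libraries read 39.8, 38.2 and 38.7 FPKM and the DASA-58 libraries 45.2, 42.9 and 43.4 FPKM, so that each treated library exceeded each control. The mean rose from 38.9 ± 0.810 to 43.8 ± 1.19 FPKM (SD, n = 3 each), with a log2 fold change of 0.17 and a standard error of 0.032 (adjusted p = 0.017, limma). This call was close to the threshold and was lost without DASA-58 replicate 1 (adjusted p = 0.059) or replicate 3 (adjusted p = 0.054).

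The balance between both vitronectin receptor beta subunits was then read within each library, where the scaling between libraries has no effect. The ratio of Itgb3 to Itgb5 in FPKM lay between 0.130 and 0.139 with DMSO and between 0.0504 and 0.0624 with DASA-58, a difference of -1.28 on the log2 scale. Expressed as a share of the sum of Itgb3 and Itgb5 FPKM, Itgb3 made up 12.1%, 12.2% and 11.5% with DMSO and 4.80%, 5.28% and 5.87% with DASA-58. The share is the same ratio in another form. Since Itgb3 was lower and Itgb5 higher in every DASA-58 library, the groups had to separate in it. The two-sided exact permutation test could thus only give p = 0.10, the smallest p that 3 libraries against 3 allow. It adds nothing to the results of the single genes, and the ratio describes the size of the shift.

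Itgb3 was also lower relative to its own alpha partner and to the other beta subunits. The ratio of Itgb3 to Itgav went from between 0.327 and 0.382 to between 0.203 and 0.254, a log2 difference of -0.64. Against Itgb2 the log2 difference was -1.25, and against Itgb1 it was -1.14. Itgav relative to the leukocyte subunit Itgam went from between 0.387 and 0.406 to between 0.261 and 0.289, a log2 difference of -0.54. None of these ratios overlapped between the groups, and each reached the exact permutation test's smallest p of 0.10 among the 8 ratios examined. For each of these ratios, the ranges of the single genes already fixed this outcome, whichever libraries were combined. The permutation test thus adds nothing here to the results of the single genes. The ratios with Itgb3 as numerator all carry its fall and are not separate results.

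**Figure D2:**
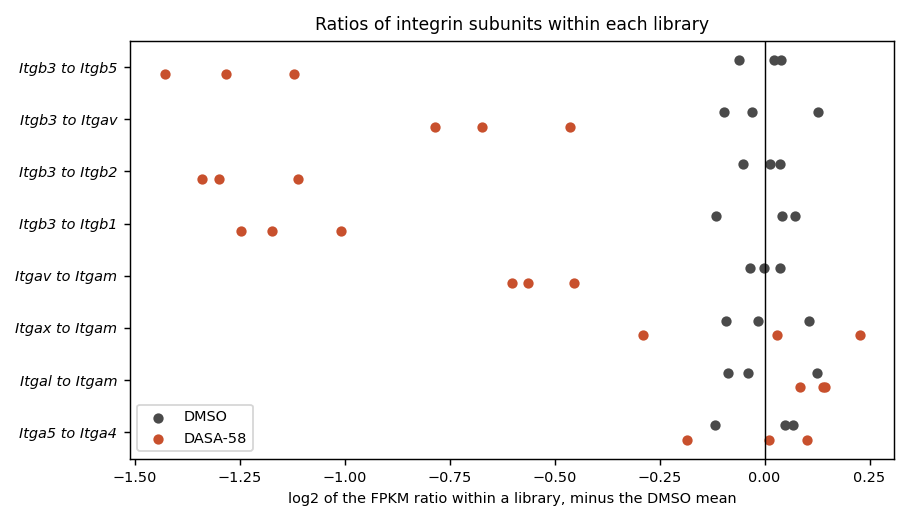
Ratios of integrin subunits within each library, as log2 of the FPKM ratio minus the DMSO mean, with 1 point per library. The 4 ratios with Itgb3 as numerator and the ratio of Itgav to Itgam were lower in all 3 DASA-58 libraries, while the other 3 ratios overlapped between the groups.

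Of Itga5, Itgb1 and Itga4, only Itga5 passed the test. Itga5 pairs with beta-1 in the classical fibronectin receptor, and it measured 53.8, 51.0 and 50.6 FPKM in the DMSO libraries and 44.2, 45.3 and 44.0 FPKM with DASA-58. The highest treated library was below the lowest control. The mean fell from 51.8 ± 1.74 to 44.5 ± 0.697 FPKM (SD, n = 3 each), and the log2 fold change was -0.21 with a standard error of 0.033 (adjusted p = 0.0069, limma).

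Its partner Itgb1, the beta subunit shared by the largest number of integrins, showed no detectable difference. The DMSO libraries gave 154, 153 and 162 FPKM and the DASA-58 libraries 160, 160 and 161 FPKM, and the groups overlapped because DMSO replicate 3 was the highest library of all. The log2 fold change was 0.04 with a 95% interval from -0.03 to 0.10 (adjusted p = 0.46, limma).

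Itga4, which with beta-1 binds VCAM-1 and fibronectin, measured 6.25, 6.01 and 6.69 FPKM in the DMSO libraries and 6.12, 5.48 and 5.0 FPKM with DASA-58. DASA-58 replicate 1 lay within the DMSO range and the other treated libraries below it. The log2 fold change of -0.17 had a standard error of 0.070 and did not pass (adjusted p = 0.17, limma), although limma-voom on the recovered fragments called it lower (adjusted p = 0.012). The ratio of Itga5 to Itga4 was between 7.56 and 8.60 with DMSO and between 7.22 and 8.80 with DASA-58, with no difference beyond the spread of the libraries (exact permutation p = 0.7).

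Itgb2, the common beta subunit of the leukocyte integrins, was the most abundant of the 10 in FPKM. It measured 278, 266 and 267 FPKM in the DMSO libraries and 295, 302 and 300 FPKM with DASA-58, from 14862 to 15588 and from 16751 to 17341 fragments. The groups did not overlap, the treated libraries being higher. The mean rose from 271 ± 6.82 to 299 ± 3.45 FPKM (SD, n = 3 each), a log2 fold change of 0.14 with a standard error of 0.027 (adjusted p = 0.015, limma). The call was lost without DASA-58 replicate 2 or replicate 3 (adjusted p = 0.060 in both cases).

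Among the alpha partners of beta-2, Itgal, the alpha-L chain of the ICAM-1 receptor LFA-1, rose. The DMSO libraries had 17.6, 18.6 and 18.0 FPKM against 20.2, 21.3 and 20.5 FPKM with DASA-58, again without overlap. The mean went from 18.0 ± 0.530 to 20.7 ± 0.555 FPKM (SD, n = 3 each), with a log2 fold change of 0.19 and a standard error of 0.037 (adjusted p = 0.018, limma). Without DMSO replicate 1, DASA-58 replicate 2 or DASA-58 replicate 3 the adjusted p was 0.066, 0.064 or 0.057, and the call was lost.

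Itgam, the alpha-M chain (CD11b) of Mac-1, gave 39.4, 36.1 and 39.0 FPKM for DMSO and 38.8, 40.7 and 40.8 FPKM with DASA-58. DASA-58 replicate 1 fell inside the DMSO range, and the log2 fold change of 0.07 had a 95% interval from -0.02 to 0.17 (adjusted p = 0.31, limma). Itgax, the alpha-X chain (CD11c) abundant on dendritic cells, was near the limit of the test at 0.987, 0.983 and 0.926 FPKM in the DMSO libraries and 1.15, 1.05 and 0.845 FPKM with DASA-58. The DASA-58 libraries held both its highest and its lowest value, from 77 to 104 fragments against 81 to 89 with DMSO. Without the minimum of 1 FPKM its log2 fold change was 0.03 (adjusted p = 0.87, limma).

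The make-up of the leukocyte group did not separate the treatments. Itgam formed 66.7% ± 1.69 of the summed FPKM of Itgam, Itgal and Itgax with DMSO and 64.9% ± 0.678 with DASA-58 (SD, n = 3 each). Itgal formed 31.6% ± 1.64 and 33.5% ± 0.435 of it. Both shares overlapped between the groups (exact permutation p = 0.2 for each), as did the ratio of Itgal to Itgam, whose log2 difference was 0.12. The abundant subunits Itgb1 and Itgb2 together held 90.6% ± 0.116 of the summed FPKM of the 4 beta subunits with DMSO and 90.8% ± 0.258 with DASA-58.

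**Figure D3:**
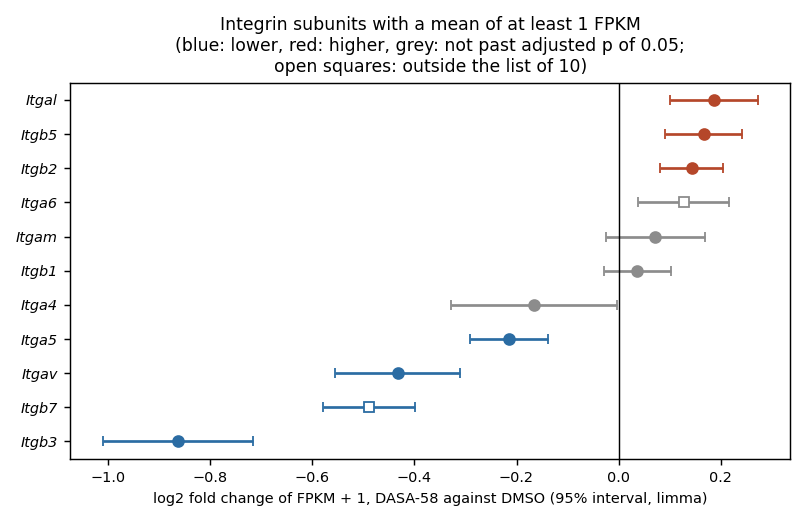
Log2 fold change of each tested integrin subunit, DASA-58 against DMSO, on the log2(FPKM + 1) scale, with 95% intervals from limma. Itgb3 lies furthest to the left at -0.86, followed by Itgb7 at -0.49 and Itgav at -0.43, while the subunits that rose lie between 0.14 and 0.19.

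The order of the 10 subunits by FPKM was the same in both groups. With DMSO it ran from Itgb2 at 271 FPKM over Itgb1 at 156 FPKM and Itga5 at 51.8 FPKM to Itgb5 at 38.9 FPKM and Itgam at 38.1 FPKM, which overlapped each other. It went on with Itgal at 18.0 FPKM, Itgav at 15.1 FPKM, Itga4 at 6.32 FPKM, Itgb3 at 5.29 FPKM and Itgax at 0.965 FPKM, each apart from its neighbours over the 3 libraries. With DASA-58, Itga5 and Itgb5 came to overlap at 44.5 and 43.8 FPKM, and Itgb5 and Itgam no longer did. The order rests on gene models of unequal length, and for Itgb5 and Itga5 the length that gave whole fragments differed from the annotated one.

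The subunits lie on 7 chromosomes of GRCm38 (GENCODE M21). Itgav (ENSMUSG00000027087) spans chr2:83724397-83806916 on the plus strand, Itgb3 (ENSMUSG00000020689) spans chr11:104608000-104670476 on the plus strand, and Itgb5 (ENSMUSG00000022817) spans chr16:33829665-33949338 on the plus strand. The beta-2 partners sit together on chromosome 7 on the plus strand, Itgal (ENSMUSG00000030830) at chr7:127296260-127335138, Itgam (ENSMUSG00000030786) at chr7:128062640-128118491 and Itgax (ENSMUSG00000030789) at chr7:128129547-128150657. Itgam and Itgax are only 11.1 kb apart, and Itgal is 728 kb from Itgam. Itgb1 (ENSMUSG00000025809) lies at chr8:128685654-128733200 and Itga4 (ENSMUSG00000027009) at chr2:79255426-79333123, both on the plus strand. Itgb2 (ENSMUSG00000000290) lies at chr10:77530252-77565708 on the plus strand and Itga5 (ENSMUSG00000000555) at chr15:103344286-103366763 on the minus strand. Of the 3 neighbours on chromosome 7, Itgal passed the test, Itgam did not, and Itgax was not tested. Genes annotated over the members had few fragments, at most 24 in a library for Cerkl opposite Itga4, 4 for Gm13684 opposite Itgav and 4 for Gm49368 on the strand of Itgam. These counts do not show how fragments shared with a member were assigned.

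Promoter sequences were at hand for 7 of the 10 subunits (RefSeq, GRCm38.p6), with none for Itgb3, Itgb2 and Itgal. Of the 7, 4 are printed as the 250 bases before the RefSeq start, on the gene's strand. They show Itgav and Itga5, which fell, Itgb5, which rose, and Itgam, which did not pass. For Itga5, and for Itgax among those not printed, the RefSeq start differs from the GENCODE start given above. Capitals mark matches on either strand to 5 short motifs, the PU.1 core GAGGAA, the NFAT core TGGAAA, the SP1 box GGGCGG, the AP-1 site TGANTCA and the TATA box TATAAA.
Itgav, chr2:83724147-83724396, plus strand: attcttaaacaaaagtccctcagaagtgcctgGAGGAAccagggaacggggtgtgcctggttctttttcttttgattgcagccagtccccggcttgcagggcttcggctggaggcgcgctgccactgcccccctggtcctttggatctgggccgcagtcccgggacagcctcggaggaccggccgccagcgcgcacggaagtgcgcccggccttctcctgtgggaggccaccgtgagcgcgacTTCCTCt
Itga5, chr15:103366792-103367041, minus strand: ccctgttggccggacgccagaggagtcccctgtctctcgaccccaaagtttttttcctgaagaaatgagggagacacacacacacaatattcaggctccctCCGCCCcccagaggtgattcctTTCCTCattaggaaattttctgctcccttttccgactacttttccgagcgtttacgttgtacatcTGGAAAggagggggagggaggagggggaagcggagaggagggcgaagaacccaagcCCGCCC
Itgb5, chr16:33829415-33829664, plus strand: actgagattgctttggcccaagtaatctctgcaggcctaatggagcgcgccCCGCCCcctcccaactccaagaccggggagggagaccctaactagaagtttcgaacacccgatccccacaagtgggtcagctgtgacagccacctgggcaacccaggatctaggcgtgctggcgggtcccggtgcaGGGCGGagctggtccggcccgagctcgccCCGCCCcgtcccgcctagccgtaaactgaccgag
Itgam, chr7:128062390-128062639, plus strand: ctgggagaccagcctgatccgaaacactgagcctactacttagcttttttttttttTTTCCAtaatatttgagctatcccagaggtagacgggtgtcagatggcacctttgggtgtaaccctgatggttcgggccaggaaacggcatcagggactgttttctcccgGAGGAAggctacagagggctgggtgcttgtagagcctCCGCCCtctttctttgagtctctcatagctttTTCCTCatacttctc

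The Itgav window holds 2 PU.1 cores, at -218 to -213 on the plus strand and at -7 to -2 on the minus strand, and no match to the other motifs. The Itga5 window holds 1 PU.1 core, 1 NFAT core and 2 SP1 boxes. In the Itgb5 window there are 3 SP1 boxes and nothing else, and in the Itgam window 2 PU.1 cores, 1 NFAT core and 1 SP1 box. Among all 32851 promoters of the same length, 23.3% hold the PU.1 core, 18.6% the NFAT core, 32.7% the SP1 box, 6.75% the AP-1 site and 12.4% the TATA box. Of the windows not printed, that of Itgb1 holds 1 PU.1 core, 1 NFAT core and 1 SP1 box, that of Itga4 1 SP1 box and that of Itgax 1 AP-1 site. A match describes the letters and does not show binding. Itgav and Itgb5 each have 18 CG pairs in this window, where Itgam has 6 and Itga5 has 11. In the windows not printed, Itgb1 has 21, Itga4 has 6 and Itgax has 5, and the median over all promoters is 6.

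A further 15 integrin subunit genes were in the table, of which 13 stayed under 1 FPKM in every library. The exceptions were Itgb7, whose product pairs with alpha-4 or alpha-E, and Itga6, which forms laminin receptors. Itgb7 measured 20.3, 20.4 and 19.7 FPKM in the DMSO libraries and 13.8, 14.7 and 13.7 FPKM with DASA-58, with a clear gap between the groups. Its log2 fold change was -0.49 with a standard error of 0.039 (adjusted p = 4.2e-04, limma), at 69.9% of the DMSO level. Itga6 gave 12.1, 11.8 and 12.3 FPKM for DMSO and 13.7, 12.9 and 13.2 FPKM with DASA-58, higher in each treated library but not past the threshold (log2 fold change 0.13, adjusted p = 0.076, limma). Itga6 passed in 3 alternatives, with centring on the median (adjusted p = 0.040), quantile normalization (adjusted p = 0.041) and limma-voom (adjusted p = 0.016).

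**Figure D4:**
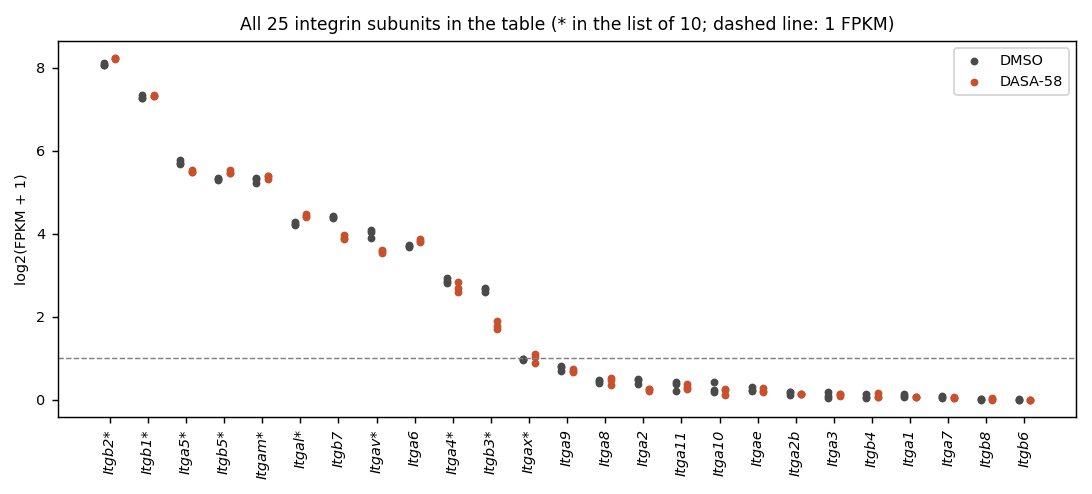
Levels of all integrin subunit genes in the table as log2(FPKM + 1), 1 point per library, ordered by level, with DMSO to the left of DASA-58 and a dashed line at 1 FPKM. The 13 genes to the right stay below the line in every library, Itgax lies on it, and the gap between the groups is widest for Itgb3.

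The genes that work with the integrins were examined by lists, whose counts stand against the background of 7.28% of all tested genes lower and 4.24% higher. None of the 13 tested activators and tail-binding adaptors, such as talin and kindlin-3, which switch integrins on from inside, passed in either direction with limma. At an unadjusted p under 0.05, 1 was lower and 1 higher, and limma-voom also called 1 lower and 1 higher. Fermt3, which encodes kindlin-3, had mean levels of 193 ± 4.24 and 190.2 ± 2.93 FPKM (SD, n = 3 each).

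Among 18 tested genes of outside-in signalling, 3 were lower and 1 was higher with limma, and 4 and 2 with limma-voom. Src, the kinase that acts downstream of beta-3 in osteoclasts, measured 23.7, 22.3 and 22.2 FPKM in the DMSO libraries and 15.8, 14.6 and 14.98 FPKM with DASA-58. Each treated library was lower than each control, and Src fell to 66.7% of its DMSO mean. Its log2 fold change was -0.55 with a standard error of 0.043 (adjusted p = 3.4e-04, limma). The other 3 had smaller changes. Lcp2, the adaptor SLP-76, had a log2 fold change of -0.15 (adjusted p = 0.016), and its call was lost without DMSO replicate 1 or any 1 of the DASA-58 libraries (adjusted p up to 0.061). For Bcar1, the adaptor p130Cas, the log2 fold change was -0.27 (adjusted p = 0.044), and for Ptk2b, the kinase Pyk2, it was 0.13 (adjusted p = 0.043). Both calls were lost when any single library was left out, with adjusted p up to 0.13. In all, the call of Bcar1 was lost in 10 of 16 alternatives, including centring on the median and quantile normalization. That of Ptk2b was lost in 11 of 17, including equal library totals.

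Of 10 tested ligand genes, 2 were lower and 0 were higher with limma, where 3 were higher at an unadjusted p under 0.05 and 3 with limma-voom. Spp1, osteopontin, reached 295, 287 and 278 FPKM in the DMSO libraries and 229, 238 and 239.8 FPKM with DASA-58, below the DMSO range in each treated library. Its log2 fold change was -0.28 with a standard error of 0.031 (adjusted p = 0.0017, limma). Icam1, the ligand of LFA-1 and Mac-1, had a log2 fold change of -0.13 (adjusted p = 0.032), and the call was lost when any single library except DMSO replicate 2 was left out (adjusted p up to 0.11). In all, the call of Icam1 was lost in 11 of 17 alternatives, including centring on the median and quantile normalization. Of 7 lateral surface partners, Cd81, a tetraspanin, rose from 28.4 ± 0.902 to 37.4 ± 1.75 FPKM (SD, n = 3 each), with a log2 fold change of 0.38 (adjusted p = 0.0015, limma).

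**Figure D5:**
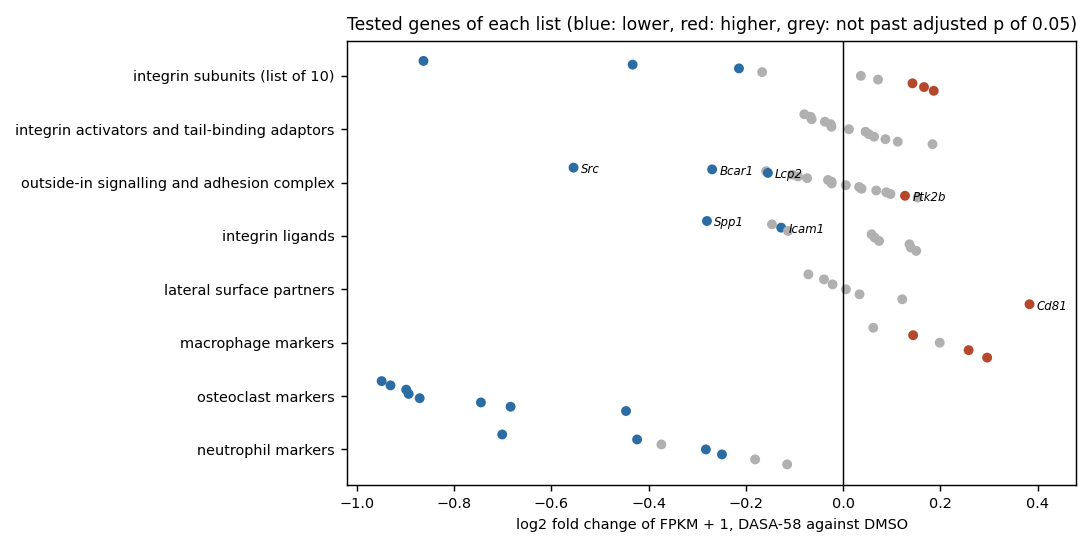
Log2 fold change of every tested gene in the list of 10 integrin subunits, 4 lists of genes that work with integrins and 3 lists of cell type markers, DASA-58 against DMSO on the log2(FPKM + 1) scale, coloured by call. In the 4 pathway lists Src lies furthest to the left at -0.55 and Cd81 furthest to the right at 0.38, and all tested osteoclast markers lie to the left.

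For Itgb3 and Itgav, the vitronectin receptor subunits that fell, the genes with the most similar profile over the 6 libraries were taken by the root mean square distance of centred log2(FPKM + 1). For Itgb3 these were Acp5 at a distance of 0.055, Ctsk at 0.066, Ocstamp at 0.074, Slc9b2 at 0.074 and Car2 at 0.078. For Itgav they were Nrp2 at 0.023, Spint2 at 0.028, Acsl1 at 0.031, Gas7 at 0.040 and St3gal1 at 0.041. The choice by profile fixes that these genes differ between the groups much as Itgb3 and Itgav do on this scale, so the names are a description. The added 1 shrinks the change of Itgb3, with means of 5.29 and 2.46 FPKM, more than that of higher genes. Acp5 had means of 105 and 55.6 FPKM and Ctsk of 210 and 110 FPKM, so a small distance does not mean an equal fold change. Whether the same genes are nearest with another pseudocount was not tested.

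The recovered depth was between 18191560 and 18968556 fragments per library. The counts of cell type markers stand against the same background. All 5 macrophage markers were tested, of which Adgre1, Cd68 and Mertk were higher (4 with limma-voom), and their summed level went from 1536 to 1583 FPKM with DMSO to 1725 to 1744 FPKM with DASA-58. All 8 tested osteoclast markers of 9 were lower, with a median log2 fold change of -0.88 and a sum of 773 to 828 FPKM against 446 to 465 FPKM. In RNA from bulk samples, fewer cells of a type and less RNA per cell cannot be told apart. Of 8 neutrophil markers 7 were tested and 4 were lower, their sum going from 174 to 177 FPKM to 137 to 143 FPKM. Of 6 megakaryocyte and platelet markers, Pf4 and Ppbp were tested and higher with limma, while limma-voom called 1 of the 2, with a sum of 398 to 441 FPKM against 564 to 633 FPKM, and the defining genes Gp9, Gp1bb, Gp1ba and Itga2b were under 1 FPKM in all libraries. All 5 dendritic cell markers in the table and 6 of 7 T and NK cell markers were under 1 FPKM in all libraries, as were all 4 mast cell and basophil markers and 2 of 3 B cell markers. Of the 3 stromal markers and 1 B cell marker tested, 0 passed with limma, where 1 stromal marker was lower at an unadjusted p under 0.05 and with limma-voom. The part of these shifts in the fall of Itgb3 and Itgav and in the rise of Itgb5, Itgb2 and Itgal was not tested.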

How the data were processed

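The authors deposited FPKM values, normalized to gene length and library depth, in 1 table of 23504 Ensembl genes, and 0 value columns were left unmapped. The submitters' processing notes name HISAT2 2.1.0, HTSeq 0.6.0 and the build mm8, without roles, and the use of strand was not given in the sources used here. Whole fragments were recovered from the FPKM steps for 96.6% of genes within 0.02 fragments, of which 90.9% of all genes used the exon lengths of GENCODE M21 (GRCm38), which also gave symbols and positions, and the remainder fitted lengths.

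Groups were taken from the treatment labels. From the deposited FPKM, log2(FPKM + 1) was compared with limma 3.58.1 in R 4.3.3 (lmFit, eBayes with a trend) for 10965 genes (minimum mean of 1 FPKM), with Benjamini-Hochberg adjustment over all of them and calls at an adjusted p under 0.05. Standard errors, 95% intervals and calls came from this fit. The fit was also run on simulated counts with the same added spread for every gene, which does not test the calls in these data. Ratios and shares within a library were compared by two-sided exact permutation tests in SciPy 1.17.1.

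The 10 members, the gene lists and the tests were chosen with earlier results of these data known. All members are named. Of each pathway list, up to 4 called genes per direction with the smallest p are named, with every other integrin subunit past the minimum, and for Itgb3 and Itgav the 5 nearest profiles. Alternatives were pseudocounts of 0.1 and 5, no minimum, a minimum of 5 FPKM, quantile normalization, centring on the median, no variance trend, no shrinkage of variances, a replicate block, limma-voom on recovered fragments and each library left out. Equal library totals were added after seeing the data. Tables were made with Python 3.11.15, pandas 2.3.3 and numpy 2.4.6, and figures with matplotlib 3.10.9. Motif letters were searched in the 250 bases before each RefSeq start.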

Additional observations from a re-analysis of the deposited data

How the results depend on the processing

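Itgav, Itgb3 and Itga5 stayed lower at an adjusted p under 0.05 (limma) in every alternative that tested them, 17, 16 and 17 of them (Itgb3 is under the minimum of 5 FPKM), and none of the 10 subunits changed direction in any alternative run. The 3 higher subunits were less stable. Without variance shrinkage 0 of them passed, with adjusted p of 0.060 for Itgb5, 0.057 for Itgb2 and 0.061 for Itgal, although 3 had an unadjusted p under 0.05 and limma-voom called 3. Itgb2 was also lost with no minimum and with no trend. With 1 library left out, 0 to 3 subunits were higher, 0 without DASA-58 replicate 3 and 1 without DASA-58 replicate 2, with 3 at an unadjusted p under 0.05 in each. With the replicate number as a block, 3 subunits were lower and 3 higher, and the numbers did not pair the libraries (correlations of deviations between -0.016 and 0.016).

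Among all genes, 798 were lower and 465 higher. The lower genes numbered 504 with centring on the median, 372 without a minimum, 515 without a trend, 314 without shrinkage, 1323 with limma-voom and 385 to 604 with 1 library left out. The higher genes numbered 257 without a minimum, 227 without shrinkage, 742 with limma-voom and 273 to 373 with 1 library left out. Both fell by more than 1.5 times when DMSO replicate 1 was left out (385 and 282) and when any DASA-58 library was (417 and 273 for replicate 1, 465 and 295 for replicate 2, 396 and 277 for replicate 3). With the replicate block they were 579 and 378. The lower share of calls was 63.2%, against 45.8% with centring, 49.5% with quantile normalization and 71.3% with equal library totals, and the 6 member calls held under these 3 scalings. A pseudocount of 1 in the ratios gave -1.03 for Itgb3 to Itgb5, -0.43 to Itgav, -1.01 to Itgb2 and -0.90 to Itgb1. The causes of these differences were not tested. The members other than Itgax rest on 253 fragments or more per library, whereas Itgax rests on 77 to 104.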
